A study of Mus musculus with 25 samples.

Results

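The genes described here carry glucose into the cardiac myocyte, burn it through glycolysis to pyruvate and lactate, pass pyruvate to the mitochondrion, and store glucose as glycogen. There were 36 genes on the list, chosen by name and role. A gene was measured where a probe set of the array was annotated to it alone, and where there were several the brightest over 25 arrays was taken. This gave 32 measured genes of 19938 in the series; Gpi1, Pfkfb1, Eno1 and G6pdx had no probe set matched to them and were not analysed here. Another 77 genes of the same pathways, of 82 listed, were read beside them.

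Neonatal myocytes were cultured from wild type (WT) mice and from transgenic (TG) mice, in which the mlc2v promoter drives CHF1/Hey2, a basic helix-loop-helix transcriptional repressor, in the myocardium. RNA from myocytes kept in serum free medium (WT no serum, 5 cultures; TG no serum, 6) and from myocytes given 20% fetal bovine serum for 24 hours (WT serum, 7; TG serum, 7) was hybridized to Affymetrix Mouse Gene ST arrays. The cultures were independent, but whether they came from separate litters is not given in the sources used here, so p-values measure the spread between cultures. Purity was checked in the study by staining for sarcomeric myosin.

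In the pathway as it is generally known, glucose enters through the transporters GLUT1 (Slc2a1), GLUT3 (Slc2a3) and the insulin responsive GLUT4 (Slc2a4), is trapped by hexokinase, and is committed to glycolysis by phosphofructokinase. Lower glycolysis makes pyruvate, which lactate dehydrogenase turns to lactate or pyruvate dehydrogenase sends to the mitochondrion. Several of these enzymes have a muscle form and a form that most tissues share. The newborn heart relies on glucose and lactate and turns to fatty acids as it matures.

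The labels and the makeup of the cultures were checked first. Hey2 itself was higher in TG than in WT myocytes by 1.58 on the log2 scale without serum and by 1.81 with serum, with no overlap in either set. The adjusted p was 0.853 without serum, where no probe set of the array passed, and 0.00972 with serum. The cardiac markers Tnnt2 and Actc1 had mean ranks above percentile 99.8 of the array in all groups, while Pecam1, an endothelial marker, had mean ranks of 46.5 to 58.9. The fibroblast collagen Col1a1 had mean ranks above 99.1, so the cultures were not free of other cells' transcripts. The mean log2 level of 22 sarcomere genes, called the sarcomere mean below, varied widely between cultures of the same group. It was lowest in WT no serum replicate 2 (10.09) and TG no serum replicates 4 and 5 (10.47 and 10.01), against 10.86 to 11.33 in the other cultures without serum. With serum it was lowest in WT serum replicates 3 and 4 (10.43 and 10.45) and TG serum replicate 6 (10.56), against 10.92 to 11.51. The mean of 15 endothelial markers was 6.67 to 6.77 in these last 3 cultures and 5.74 to 6.46 in the other cultures with serum. Without serum it overlapped: 5.74 in WT replicate 2 and 5.57 and 5.86 in TG replicates 4 and 5, against 5.31 to 5.77 in the others. In that set 7 of the 15 endothelial markers in WT and 8 in TG cultures had means under 5. In such bulk samples, fewer myocytes and less RNA per myocyte cannot be told apart. Hey2 was also lowest of its group in these TG cultures (7.08 and 7.08 without serum, 7.94 with serum).

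The question of each genotype comparison was whether CHF1/Hey2 overexpression moved the glucose genes. None of the 32 passed the adjusted test in either set, and most differences were small. Without serum, 19 genes were higher and 13 lower in TG myocytes, with differences from -0.15 to 0.28 on the log2 scale and a median of 0.04. With serum, 25 were higher and 7 lower, from -0.25 to 0.54, with a median of 0.18, where the median over all genes was -0.02 and 44.6% of all genes were higher. In the plot of the differences, the largest single difference was that of Pdk1 with serum, and its interval still reached 0.

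**Figure D1:**
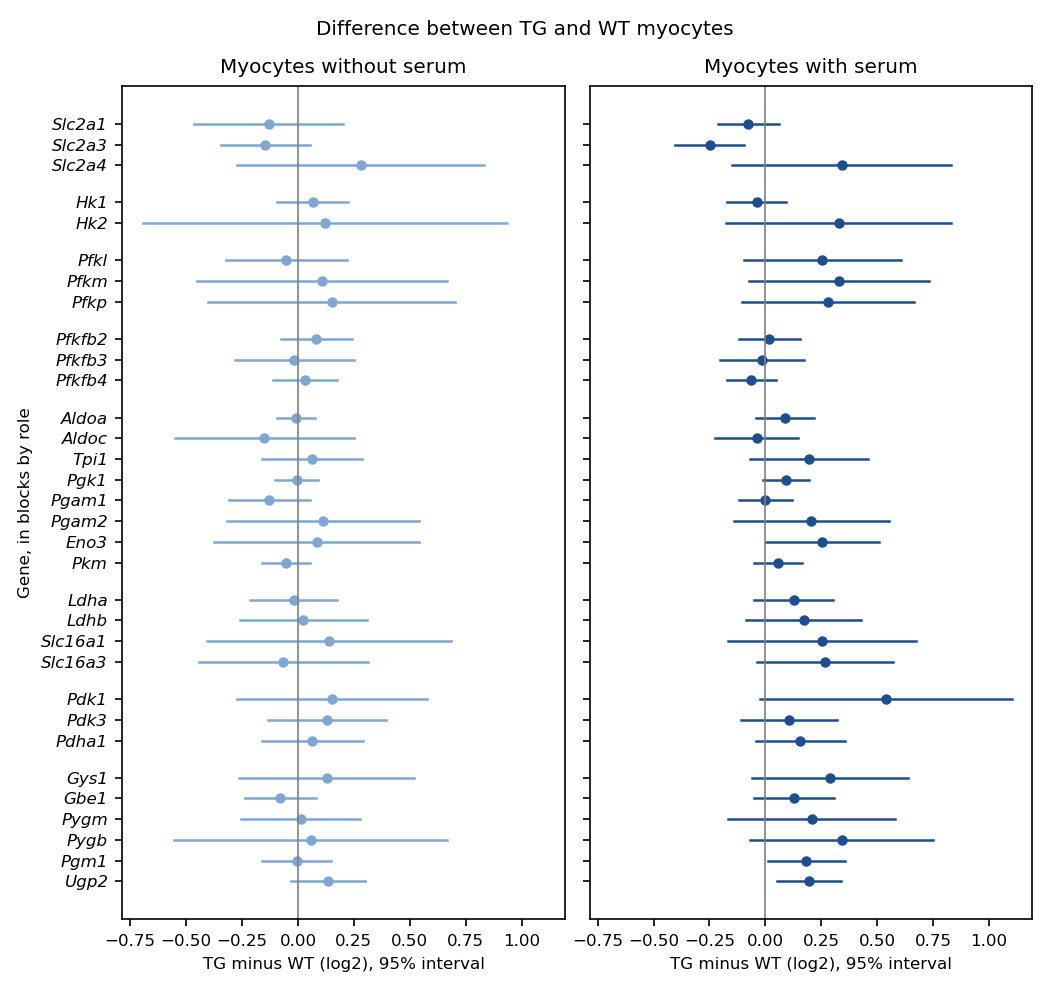
Difference between TG and WT myocytes (log2, horizontal axis) for 32 genes in blocks by role, without serum (left) and with serum (right); points are limma estimates and lines their 95% intervals. With serum 25 of 32 points lie above 0, and Slc2a3 lies lowest at -0.25.

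Without serum, no gene had an unadjusted limma p under 0.05 (0 of 32 higher and 0 lower, against 2.31% and 3.33% of all probe sets), none passed the adjusted test (0% of all probe sets did), and none had groups that did not overlap (0.402% of all). The smallest p belonged to Ugp2, the pyrophosphorylase that makes UDP-glucose for glycogen. Its log2 level was 7.69, 7.66, 7.87, 7.95 and 7.80 in the WT cultures and 7.71 to 8.06 (median 7.94) in the TG cultures, a difference of 0.13 ± 0.07 (SE; adjusted p = 0.887). The ranges overlapped over most of their length. Among the other 9 genes with the smallest p, Slc2a3 (-0.15), the phosphoglycerate mutase Pgam1 (-0.13), the branching enzyme Gbe1 (-0.08), the pyruvate kinase Pkm (-0.05) and Slc2a1 (-0.13) were lower in TG myocytes. Slc2a4 (0.28), the pyruvate dehydrogenase kinase Pdk3 (0.13), the bifunctional enzyme Pfkfb2 (0.08) and Hk1 (0.07) were higher. The adjusted p of these genes was 0.888 to 0.929, and WT and TG cultures overlapped for each.

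With serum, 3 genes were higher (4.39% of all probe sets were) and 1 was lower (6.31%) at an unadjusted limma p under 0.05, and none of the 32 passed the adjusted test (0.00844% of all did). The lower gene was Slc2a3, the high affinity transporter GLUT3 best known from neurons. Its level was 6.75 to 7.20 (median 6.84) in WT cultures and 6.56 to 6.74 (median 6.64) in TG cultures. All 7 TG cultures lay below all 7 WT cultures, the only such case of the 32 genes (0.256% of all probe sets did not overlap), although the nearest cultures stood at 6.74 and 6.75. The difference was -0.25 ± 0.07 (SE), or 0.841-fold, with an adjusted p of 0.310 that stayed between 0.134 and 0.6247 over the alternatives run. Without serum the same gene differed by -0.15 with overlap.

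The 3 higher genes were Ugp2 (WT 7.26 to 7.54, median 7.47; TG 7.46 to 7.80, median 7.58), the phosphoglucomutase Pgm1 (WT 9.93 to 10.30, median 10.10; TG 10.04 to 10.58, median 10.33) and the muscle enolase Eno3 (WT 10.72 to 11.38, median 11.28; TG 11.04 to 11.61, median 11.51). Their differences were 0.20 ± 0.07, 0.18 ± 0.08 and 0.26 ± 0.12 (SE), with adjusted p of 0.350, 0.444 and 0.465. Ugp2 and Pgm1 are neighbouring steps between glucose phosphate and glycogen, and for both the groups overlapped. Pdk1, which switches pyruvate dehydrogenase off, ranged from 6.67 to 7.94 (median 7.56) in WT and from 6.96 to 8.79 (median 8.10) in TG cultures. The Pdk1 difference, 0.54 ± 0.26 (SE) or 1.45-fold, had an adjusted p of 0.489. The remaining 5 of the 10 genes with the smallest p were Pgk1 (0.09), the lactate exporter Slc16a3 (0.27), the phosphorylase Pygb (0.34), the glycogen synthase Gys1 (0.29) and the muscle phosphofructokinase Pfkm (0.33), each overlapping, with adjusted p of 0.518 to 0.542.

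The sarcomere mean moved with these differences. The sarcomere mean was 0.30 higher in TG than in WT cultures with serum (21 of 22 markers higher), while 15 of 15 endothelial markers were lower, by 0.26 on average, and 8 of 12 epicardial markers, by 0.21. Without serum the sarcomere mean was 0.11 higher in TG cultures (19 of 22 markers), with 12 of 15 endothelial and 10 of 12 epicardial markers lower, by 0.08 and 0.21. This sarcomere difference hung on WT no serum replicate 2, and without that culture it was -0.06. Of 14 macrophage markers 10 were higher in TG cultures with serum (mean difference 0.12), and 12 were lower without serum (-0.14). Of 15 fibroblast markers 8 were lower with serum (-0.02) and 11 without serum (-0.03). At equal sarcomere mean, 16 of 32 genes were higher in TG myocytes with serum, and the median difference was 0.0008 in place of 0.18. Slc2a3 kept -0.20. Leaving out TG serum replicate 6 raised the number of genes higher at an unadjusted p under 0.05 from 3 to 17 (6.81% of all probe sets), among them Slc2a4, Hk2, Pfkm, Slc16a1, Pdk1, Gys1 and Pygb, and the sarcomere mean of TG over WT cultures rose to 0.41. Leaving out the 3 cultures with the lowest sarcomere means in each set, with serum chosen after the data were seen, gave 10 higher without serum (5.07% of all) and 7 with serum (4.36% of all); the sarcomere mean was then 0.26 and 0.21 higher in TG cultures. The number of these genes called after adjustment was 0 in each case. The part of the sarcomere mean in the differences between genotypes was not tested beyond these values.

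The TG effect was also compared between the sets. None of the 32 genes passed the adjusted test of that difference (0.00281% of all probe sets did), and 0 had an unadjusted limma p under 0.05. The smallest unadjusted p of that fit was 0.0858, for Gbe1, whose difference was -0.08 without serum and 0.13 with serum.

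Levels of many of these genes followed the sarcomere mean from culture to culture within a group. Each gene was regressed on the sarcomere mean with genotype held equal, so that a slope of 1 is a gene whose log2 level moved as much as the sarcomere mean did. Without serum 17 of 32 genes had a positive slope past the adjusted test (5.33% of all probe sets) and with serum 20 of 32 (6.79%), while 0 had a negative slope past it in either set (6.18% and 8.06% of all). Among probe sets with a mean log2 level of 8 or more, a comparison added after the data were seen, 15.9% were positive without serum and 15.2% with serum, against 14 of 23 and 19 of 25 of these genes. The sarcomere mean is no independent treatment. As a description over arrays of both genotypes, the mean of the endothelial markers ran against it without serum (r = -0.80, n = 11) and with serum (r = -0.97, n = 14), and so did that of 12 epicardial markers (r = -0.61 and -0.72) and, less closely, that of 15 fibroblast markers (r = -0.27 and -0.57). The mean of 14 macrophage markers ran with it (r = 0.55 and 0.35). The part of these other cells' transcripts in the slopes was not tested.

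**Figure D2:**
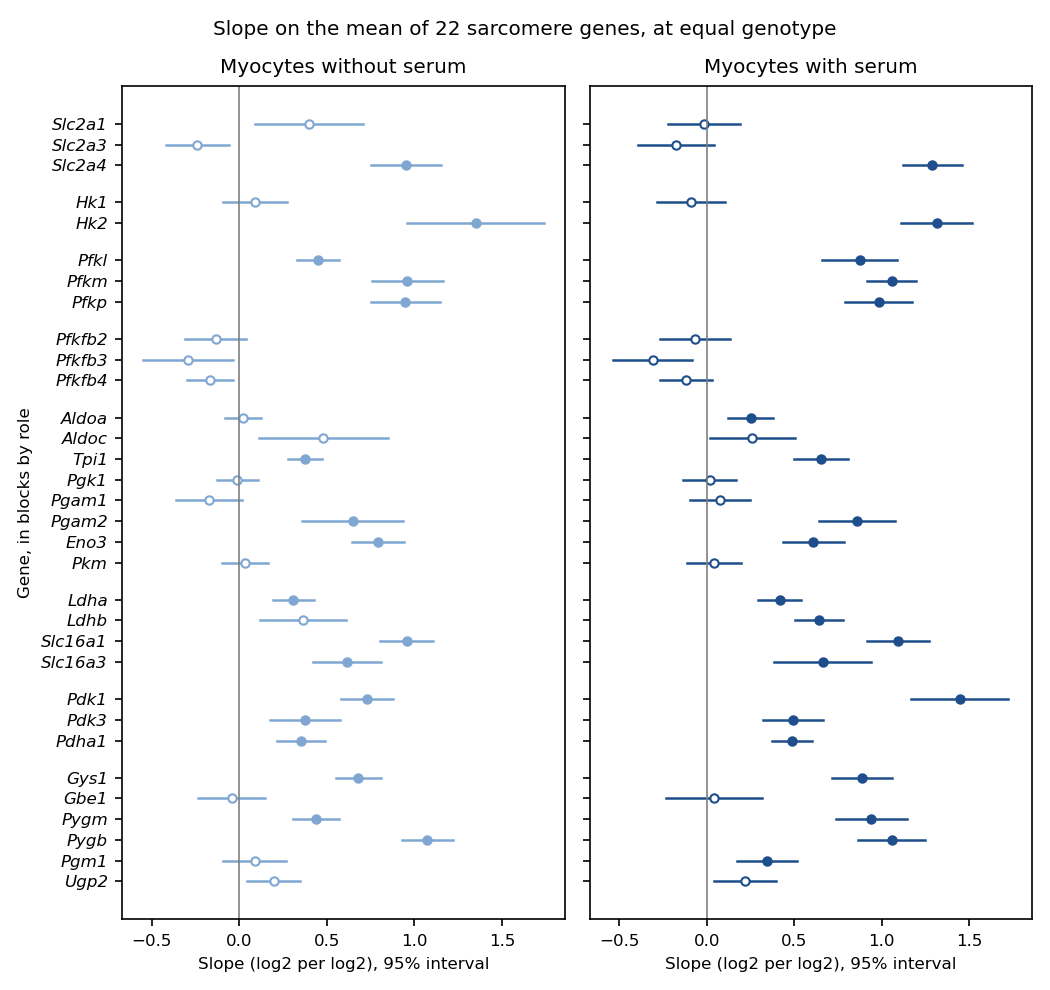
Slope of each gene's log2 level on the sarcomere mean (log2 per log2, horizontal axis) at equal genotype, without serum (11 arrays, left) and with serum (14 arrays, right); lines are 95% intervals and filled points passed the adjusted test. The same 17 genes are filled on both sides, and the 3 bifunctional Pfkfb enzymes lie at or below 0 on both.

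Of the transporters only Slc2a4 passed, with slopes of 0.95 without serum and 1.29 with serum (limma adjusted p = 7.1e-05 and 2.1e-07). Its level was 6.85 in WT no serum replicate 2 against 7.71 to 7.95 in the other WT cultures without serum, and 7.25 and 7.39 in TG no serum replicates 5 and 4 against 7.93 and more in the other TG cultures. Slc2a1 had slopes of 0.40 and -0.02 and Slc2a3 of -0.24 and -0.17, and none of these passed. Hk2, the insulin responsive hexokinase of muscle, had slopes of 1.35 and 1.31. Its level was 8.72, 7.84, 8.53, 9.09 and 8.86 in the WT cultures without serum, 7.76 to 9.76 (median 8.93) in the TG cultures without serum, 9.27 to 10.56 (median 9.9995) in WT and 9.45 to 10.86 (median 10.49) in TG cultures with serum. The lowest Hk2 cultures were those with the lowest sarcomere means in each group. All 3 phosphofructokinases passed in both sets: Pfkm (0.96 and 1.06), Pfkp (0.95 and 0.98) and Pfkl (0.45 and 0.87). The 3 measured bifunctional enzymes, which make and remove the activator of phosphofructokinase, did not pass: Pfkfb2 (-0.13 and -0.07), Pfkfb3 (-0.29 and -0.31) and Pfkfb4 (-0.17 and -0.12). Pfkfb4 was dim without serum, with means of 5.14 in WT and 5.17 in TG cultures, near the array medians (4.99 to 5.09). Pfkfb3 had means of 5.69 and 5.67 there, so flat slopes of these genes say little.

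In lower glycolysis, 3 of 8 genes passed without serum and 4 of 8 with serum. The muscle forms Pgam2 (0.65 and 0.86) and Eno3 (0.79 and 0.61) passed in both sets, as did the triose phosphate isomerase Tpi1 (0.38 and 0.65). Pgam1 (-0.17 and 0.08), Pgk1 (-0.01 and 0.02) and Pkm (0.03 and 0.04) passed in neither, and their intervals lay between -0.36 and 0.25. Pkm in particular was level: it lay between 11.33 and 11.57 in all 11 cultures without serum and between 11.91 and 12.19 in all 14 with serum. The aldolase Aldoa passed with serum only (0.02 and 0.25), and Aldoc did not pass (0.48 and 0.26).

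**Figure D3:**
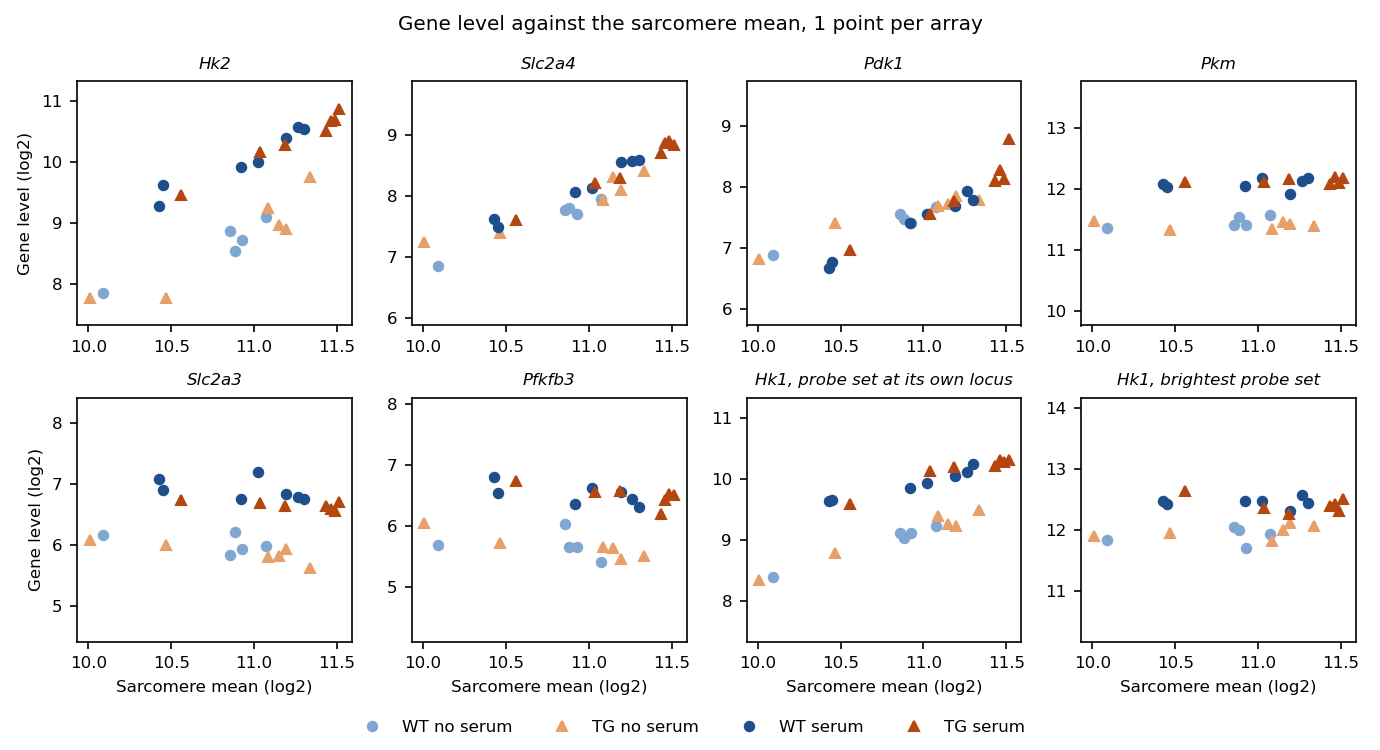
Log2 level (vertical axis, spanning 4 log2 units in each panel) against the sarcomere mean (log2, horizontal axis), 1 point per array; circles are WT and triangles TG, pale without and dark with serum. Hk2, Slc2a4 and Pdk1 climb with the sarcomere mean, Pkm, Slc2a3 and Pfkfb3 do not, and Hk1 does so only at the probe set of its own locus.

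On the lactate side, Ldha (0.31 and 0.42) and the monocarboxylate transporters Slc16a1 (0.96 and 1.09) and Slc16a3 (0.62 and 0.66) passed in both sets, and Ldhb with serum only (0.36 and 0.64). At the entry to the mitochondrion, the dehydrogenase subunit Pdha1 (0.35 and 0.49) and its kinases Pdk1 (0.73 and 1.44) and Pdk3 (0.38 and 0.49) passed in both. Of the glycogen genes, Gys1 (0.68 and 0.89), the muscle phosphorylase Pygm (0.44 and 0.94) and Pygb (1.07 and 1.06) passed in both, and Pgm1 with serum only (0.09 and 0.34). Gbe1 (-0.04 and 0.04) and Ugp2 (0.20 and 0.22) passed in neither. So both the synthase and the phosphorylases followed the sarcomere mean, and the branching enzyme did not.

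Leaving out the 3 cultures of each set with the lowest sarcomere means narrowed the range of the sarcomere mean from 1.33 to 0.478 without serum and from 1.09 to 0.596 with serum. In the median the slopes stayed about as large: over the 32 genes it was 0.46 in place of 0.38 without serum and 0.43 in place of 0.49 with serum, and all 17 and all 20 genes that had passed kept a slope above 0. Slc2a4 had 1.23 and 1.53, Slc16a1 1.65 and 1.27, Pygb 0.94 and 0.85 and Eno3 0.62 and 0.37. The median SE rose from 0.08 to 0.44 without serum and from 0.08 to 0.19 with serum. Without serum 0 of 32 genes then passed, where no probe set of the array did, and with serum 8 passed (1.25% of all): Slc2a4, Hk2, Pfkl, Pfkm, Pfkp, Slc16a1, Pdk1 and Gys1. These reach from glucose uptake to the phosphofructokinase step, with lactate transport, the pyruvate dehydrogenase switch and glycogen synthesis beside them.

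The call for hexokinase 1, the form that most tissues use, changed with the probe set. The brightest Hk1 probe set (mean 12.22) lies, by its place in the array's numbering, among genes of another chromosome, while a dimmer one (9.60) lies among the neighbours of Hk1. The 2 did not move together within groups (r = -0.0194 over 25 arrays), so the values given for the brightest, the difference of 0.07 above and the Hk2 over Hk1 pair included, may not measure Hk1. The bright one had slopes of 0.09 and -0.09, and the one at the gene's own locus had 0.83 and 0.65 (limma adjusted p = 6.1e-06 and 2.5e-05). At the own locus the level ran from 8.35 to 9.49 without serum and from 9.59 to 10.32 with serum. TG and WT cultures differed by 0.11 and 0.22 there, with adjusted p of 0.952 and 0.525. The brightest probe sets of Pgk1, Pgam1 and Ldhb also lay among genes of other chromosomes. At their own loci Pgk1 (-0.01 and 0.03) and Pgam1 (-0.15 and 0.09) had slopes like those above, and Ldhb had 0.41 and 0.82, again past the test with serum only.

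The other genes of the pathway, taken whole from a list by role, fell on both sides of 0. Without serum 14 of 77 passed with a positive slope (5.33% of all probe sets) and 10 with a negative (6.18%). With serum 22 were positive (6.79%) and 15 negative (8.06%). Among all probe sets with a mean log2 level of 8 or more, 15.9% were positive without serum and 15.2% with serum. At the mitochondrial entry of pyruvate 7 of 10 were positive without serum and 8 of 10 with serum, and none was negative. These were the carrier Mpc1, the kinase Pdk2 (0.66 and 1.21), the enzyme's own subunits Pdhb, Dlat (0.50 and 0.64) and Dld, the phosphatase Pdp1 and its regulator Pdpr, joined with serum by Pdhx. Of 23 further glycogen genes 5 and 7 were positive, led by glycogenin (Gyg, 0.65 and 0.89), the primer of glycogen, and including the phosphorylase kinase subunits Phka2 and Phkb and the phosphatase targeting subunit Ppp1r3c (0.52 and 0.88), while 2 and 3 were negative, Pgm2l1 in both sets. AMP kinase was split: the catalytic subunit Prkaa2 rose with the sarcomere mean (1.01 and 0.90) and Prkaa1 fell (-0.24 in both sets). Hif1a, the oxygen regulated factor that drives many glycolysis genes, was positive too (0.62 and 0.73).

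In the branches that leave glycolysis for biosynthesis, the genes that passed ran the other way. Of 11 genes of the pentose phosphate and hexosamine branches, 0 were positive. Without serum 5 were negative (6.18% of all probe sets were) and with serum 7 (8.06%), and the others did not pass. Taldo1 (-0.95 and -0.99), Tkt (-0.78 and -1.06) and Pgd (-0.64 and -0.61) of the pentose phosphate branch passed in both sets, as did Gfpt1 (-0.30 and -0.61), the entry enzyme of the hexosamine branch. Gfpt2 (-1.07), Uap1 (-0.65) and Gnpnat1 (-0.56) passed with serum only, and Rpia without serum only. Pgm3, which also serves the hexosamine branch, was negative with serum (-0.61). Between genotypes, 0 of the 77 passed the adjusted test. The smallest limma p without serum belonged to Dld (0.21), Phkg2 (0.12) and Gsk3b (0.13), and with serum to Mpc1 (0.30), the muscle bisphosphatase Fbp2 (-0.22) and Slc16a7 (0.31). Fbp2 was dim there, with means of 4.92 in WT and 4.70 in TG cultures, below the array medians (5.21 to 5.36).

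**Figure D4:**
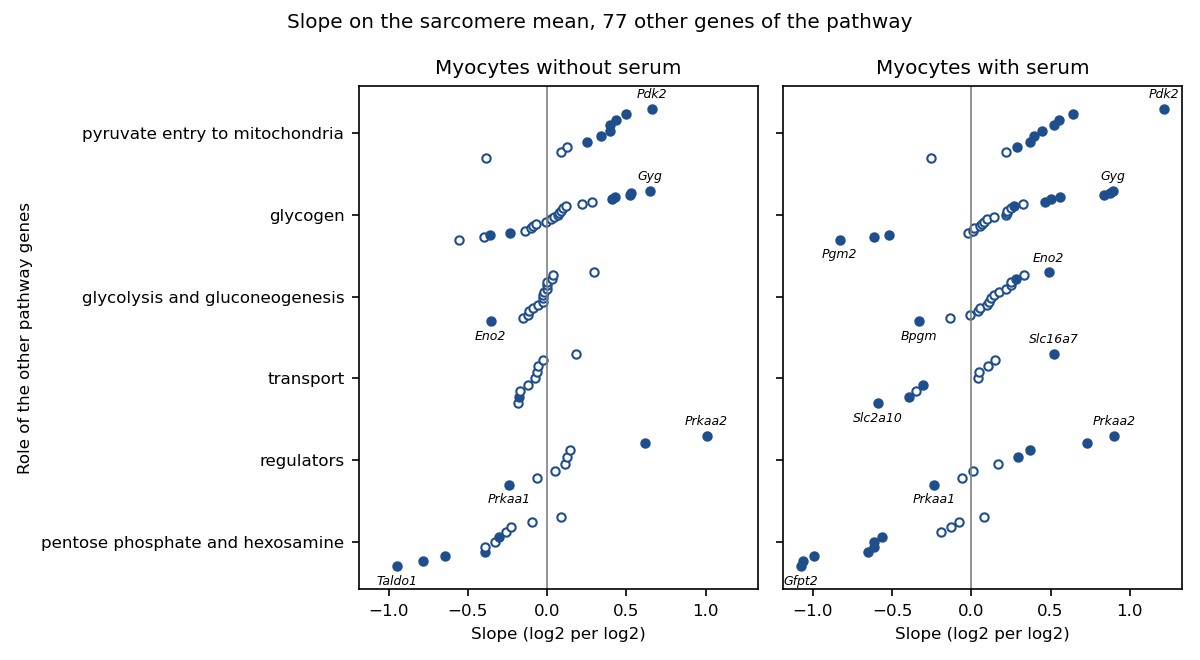
Slope on the sarcomere mean (log2 per log2, horizontal axis) of 77 other genes of the pathway by role, without serum (left) and with serum (right); filled points passed the adjusted test and the outermost of them are named. Filled points of the pyruvate entry group lie right of 0 and those of the pentose phosphate and hexosamine group left of it.

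Promoter letters of genes that did and did not move together are shown for the E-box CACGTG, a sequence that Hey factors and other basic helix-loop-helix proteins can bind, and for the MEF2 box of muscle genes. RefSeq windows of 250 bases before the start site (GRCm38.p6) were found for 34 of the 36 listed genes, with 53 windows in all; Slc2a3 and Slc2a4 had no entry. CACGTG, which reads the same on both strands, occurred in 5 of the 53 (9.43%) and in 6.02% of all 32851 windows. CACGCG on either strand occurred in 9 of 53 (17%), against 7.62%, and the MEF2 box in 2 of 53 (3.77%), against 2.92%. The windows shown are Ldha (chr7:46845554-46845803, plus strand), Slc16a1 (chr3:104638414-104638663, plus), Pfkm (chr15:98092339-98092588, plus) and Pgam2 (chr11:5803797-5804046, minus), which passed the slope test in both sets, and Pfkfb2 (chr1:130715822-130716071, minus) and Pfkfb3 (chr2:11502091-11502340, minus), which passed in neither. Capitals mark CACGTG and, in Pgam2, the MEF2 box, and each window reads 5′ to 3′ on the gene's strand.
Ldha: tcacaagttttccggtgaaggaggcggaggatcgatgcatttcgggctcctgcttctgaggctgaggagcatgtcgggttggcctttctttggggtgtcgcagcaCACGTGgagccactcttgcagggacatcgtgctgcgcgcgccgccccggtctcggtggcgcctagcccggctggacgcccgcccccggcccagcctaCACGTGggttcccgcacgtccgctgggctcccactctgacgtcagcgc
Slc16a1: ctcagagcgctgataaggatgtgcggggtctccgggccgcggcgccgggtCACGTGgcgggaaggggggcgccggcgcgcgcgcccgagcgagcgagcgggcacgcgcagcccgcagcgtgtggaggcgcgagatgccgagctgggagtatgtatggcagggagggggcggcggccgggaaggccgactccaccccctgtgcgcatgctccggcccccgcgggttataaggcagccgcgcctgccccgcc
Pfkm: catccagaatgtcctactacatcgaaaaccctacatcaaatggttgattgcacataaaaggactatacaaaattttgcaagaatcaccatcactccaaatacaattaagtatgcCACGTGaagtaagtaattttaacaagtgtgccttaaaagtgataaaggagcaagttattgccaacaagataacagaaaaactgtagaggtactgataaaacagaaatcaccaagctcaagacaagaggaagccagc
Pgam2: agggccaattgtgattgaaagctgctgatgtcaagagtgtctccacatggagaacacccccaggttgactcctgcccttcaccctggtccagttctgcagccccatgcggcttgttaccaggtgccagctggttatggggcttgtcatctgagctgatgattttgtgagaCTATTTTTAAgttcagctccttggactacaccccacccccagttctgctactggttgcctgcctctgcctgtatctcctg
Pfkfb2: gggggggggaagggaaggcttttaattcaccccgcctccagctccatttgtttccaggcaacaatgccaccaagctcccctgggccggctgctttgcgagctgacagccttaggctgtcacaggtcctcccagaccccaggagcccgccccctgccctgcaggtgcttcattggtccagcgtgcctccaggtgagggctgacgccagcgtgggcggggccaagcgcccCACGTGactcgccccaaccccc
Pfkfb3: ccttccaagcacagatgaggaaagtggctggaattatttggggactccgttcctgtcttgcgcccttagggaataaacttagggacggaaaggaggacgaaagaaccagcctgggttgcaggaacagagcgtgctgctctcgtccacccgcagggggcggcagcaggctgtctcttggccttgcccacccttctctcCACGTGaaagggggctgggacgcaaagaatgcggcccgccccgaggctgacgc

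CACGTG stood 145 and 48 bases before the start of Ldha, 200 before that of Slc16a1, 136 before that of Pfkm, 22 before that of Pfkfb2 and 53 before that of Pfkfb3. The MEF2 box stood 80 bases before the start of Pgam2. Genes with CACGTG were thus found on both sides of the slope test.

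Serum was compared by the rank of each probe set within its array, because the arrays with and without serum stand on separate scales (array medians 5.21 to 5.36 against 4.99 to 5.09, and a median SD of values of 2.57 against 2.12). A change of rank and this difference between the sets cannot be told apart. In WT myocytes 8 of 32 genes ranked higher with serum (29.5% of all probe sets did) and 5 lower (29.6%), and in TG myocytes 10 higher (30.5%) and 4 lower (30.7%). These shares lie near or below the background. The test was limma on normal scores of the ranks, and 7 genes passed it as higher in both genotypes (25.8% of all probe sets did) and 4 as lower (26.1%), again no more than the background.

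**Figure D5:**
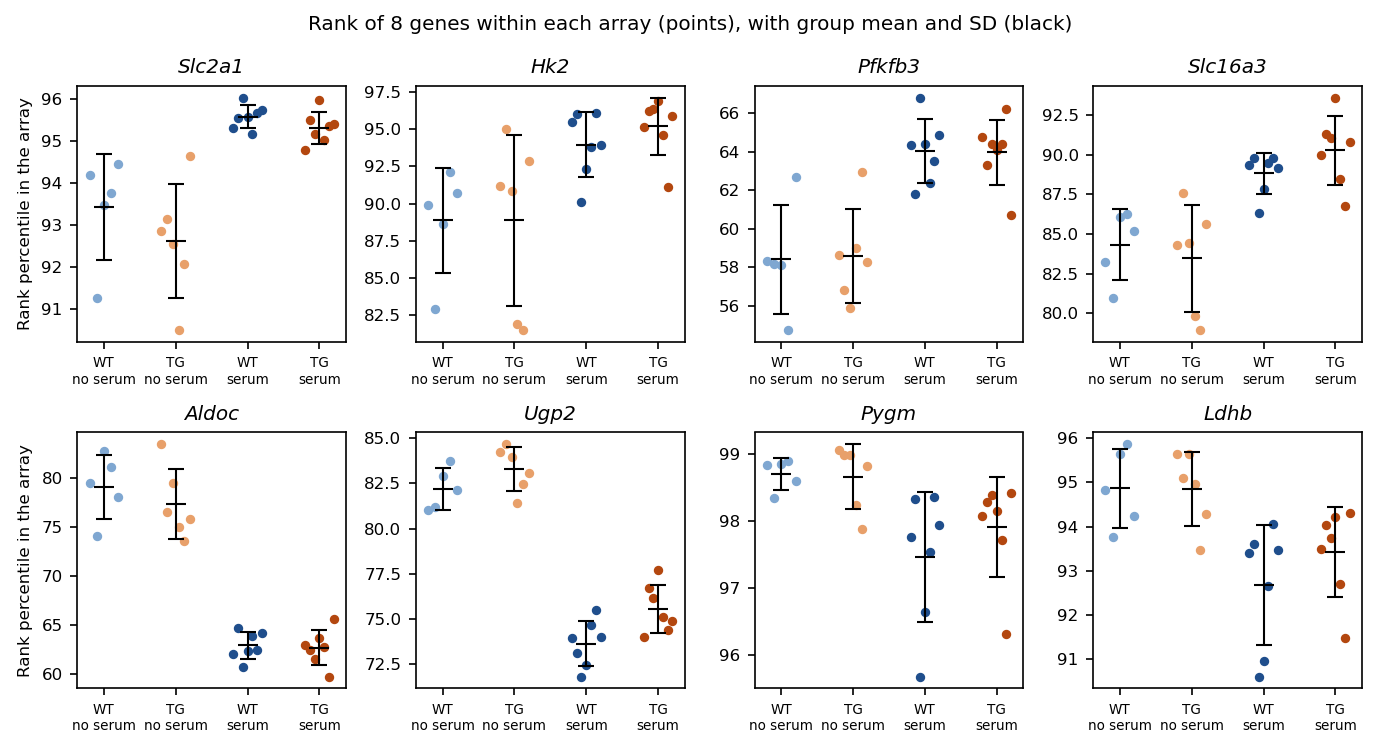
Rank percentile within the array (vertical axis, own range in each panel) of 8 genes in 25 arrays, 1 point per array, with the group mean and SD in black. Slc2a1, Hk2, Pfkfb3 and Slc16a3 stand higher with serum in both genotypes, and Aldoc, Ugp2, Pygm and Ldhb lower.

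Genes that ranked higher in both genotypes were Slc2a1, Slc2a3, Hk2, Pfkfb3, Pfkfb4, Pgam1 and Slc16a3. Hk2 went from percentile 88.9 (SD 3.55, n = 5) to 93.9 (SD 2.17, n = 7) in WT and from 88.9 (SD 5.75, n = 6) to 95.2 (SD 1.94, n = 7) in TG myocytes. Without WT no serum replicate 2 the normal score difference in WT was 0.27 in place of 0.34, with an adjusted p of 0.0719. Slc16a3, which exports lactate, went from 84.3 to 88.8 in WT and from 83.5 to 90.3 in TG. Slc2a1 went from 93.4 to 95.6 and from 92.6 to 95.3, and every array with serum lay above every array without in each genotype. By normal score, the scale of the test, Slc2a3 (62.5 to 68.0) was also among the 5 largest rises in WT and Pgam1 (94.9 to 96.6) in TG. By percentile, Pfkfb4 (51.3 to 57.2 in WT and 52.2 to 56.9 in TG) and Pfkfb3 (58.4 to 64.0 and 58.6 to 64.0), of middling rank, rose by more than either Pgam1 or Pfkp did. By normal score the phosphofructokinase Pfkp was among the 5 in both, but passed in TG only (94.1 to 96.3; WT 93.7 to 95.4), and there it lost its call in 4 of the alternatives run (adjusted p up to 0.0773). Pkm and Pgk1 ranked higher past the test in TG only and Pfkfb2 in WT only. For Pgk1 this holds for the brightest probe set. At its own locus Pgk1 ranked higher in WT too (98.8 to 99.0, limma adjusted p = 0.00807). Whether the genotypes differ in these calls was not tested.

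The deepest fall was that of Aldoc, the aldolase best known from brain, from percentile 79.1 (SD 3.30) to 62.9 (SD 1.41) in WT and from 77.3 (SD 3.60) to 62.7 (SD 1.82) in TG myocytes. Its groups did not overlap in either genotype. Ugp2 fell from 82.2 to 73.6 and from 83.3 to 75.6, also without overlap. Pygm (98.7 to 97.5 and 98.7 to 97.9) and Ldhb (94.9 to 92.7 and 94.9 to 93.4) fell less, and their groups overlapped. At the own locus of Ldhb the fall was larger, from 88.3 to 78.4 and from 88.0 to 79.3, without overlap. Pygm in TG lost its call in 5 of the alternatives run (adjusted p up to 0.128), and Ldhb in TG in 3 (up to 0.0576). Aldoa ranked lower past the test in WT only (99.60 to 99.49, limma adjusted p = 0.0193), with overlap. Whether the genotypes differ in that was not tested. The remaining genes among the 5 largest falls by normal score did not pass: Pfkm in WT (94.98 to 93.0) and Pgam2 in TG (97.7 to 97.1). In neither genotype did 16 genes pass, among them Slc2a4, Ldha, Pdk1, Gys1 and Eno3. Hk1 is counted there by its brightest probe set. At its own locus Hk1 ranked higher in WT (91.4 to 93.7, limma adjusted p = 0.0391). In TG myocytes its mean percentile at that locus also rose, from 91.7 (SD 2.65) to 94.5 (SD 1.15).

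Isoform pairs were read as the difference of their log2 levels within an array, of which only the change between groups has a meaning. For none of the 7 measured pairs did WT and TG cultures separate in either set. Slc2a4 over Slc2a1 was 0.41 higher in TG than in WT without serum (SD 0.23 in WT and 0.40 in TG) and 0.42 higher with serum (SD 0.50 and 0.46). It was lowest in WT no serum replicate 2 and WT serum replicate 3, which had the lowest sarcomere means of their groups. Pgam2 over Pgam1 was 0.24 and 0.21 higher in TG, and Hk2 over Hk1 0.06 and 0.37 higher, or 0.01 and 0.10 with the own locus of Hk1. Pfkm over Pfkl was 0.16 and 0.07 higher. The other 3 pairs differed as follows: Pfkm over Pfkp by -0.04 and 0.05, Ldhb over Ldha by 0.04 in both sets, and Pygm over Pygb by -0.04 and -0.13. With the own locus of Ldhb, its pair differed by 0.001 without serum and -0.03 with serum. The SDs within groups ran from 0.08 to 0.78 over these pairs.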

How the data were processed

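Per the labels, the authors processed the arrays with RMA in Affymetrix Expression Console 1.1, and the deposited table holds log2 intensities of 35557 probe sets in 25 arrays. Whether the sets with and without serum were normalized together is not given in the sources used here. Arrays give no read depth, and precision rests on how many there are. Probe sets were named through the platform annotation: 21789 had 1 symbol, 1621 several and 12147 none. Inside a serum set, the genotypes were compared by limma 3.58.1 (lmFit and eBayes, R 4.3.3), two-sided, with Benjamini-Hochberg adjustment over all probe sets and calls at an adjusted p under 0.05. Slopes on the sarcomere mean used the same fit with genotype as a term, and ranks were turned to normal scores. Members and lists were chosen with earlier results of these data known. Named were members past a test or without overlap, the 10 with the smallest p per set, the 5 largest rank changes each way, up to 6 slopes each way and all isoform pairs, and further slopes are given by role. The scripts were tested on simulated data. No 2 arrays held identical values.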

Additional observations from a re-analysis of the deposited data

Results flagged for a closer look

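Values were taken as 128 sets, 1 for each gene in each group. In 11 of them an array's gap to its neighbour took up more of the group's range than Dixon's limit allows. Chance gives about 1 in 20 for independent sets. These sets share arrays, so the count cannot be held against that rate. In 5 of the 11 WT no serum replicate 2 lay lowest: Slc2a4 (gap over range 0.779), Pfkl (0.807), Pfkm (0.845), Ldha (0.723) and Pygb (0.711). In 4 of them TG serum replicate 6 lay lowest: Aldoa (0.717), Pgam2 (0.695), Pdha1 (0.640) and Pygm (0.620). These cultures also had the lowest sarcomere means of their groups. Pfkfb4 stood apart in TG no serum replicate 5, where it was highest (0.844), and in WT serum replicate 2, where it was lowest (0.576).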

How the results depend on the processing

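With 5 to 7 arrays a group, small differences between genotypes are not detectable here, and the counts of genes at an unadjusted p under 0.05 moved most. With serum, the count of genes higher in TG was 3, and became 15 with array weights, 11 with each array centred on its median, 7 without the 3 cultures of lowest sarcomere mean, 1 with quantile normalization again, 1 with the sarcomere mean as a covariate, 0 with culture number as a replicate block, and 1 to 17 when 1 array was left out, the 17 being without TG serum replicate 6. The number of genes higher in any degree, 25, became 16 with that covariate. Without serum the count higher at an unadjusted p under 0.05 was 0 (2.31% of all probe sets were). It became 1 with the covariate (3.57%), 10 without the 3 cultures (5.07%) and 0 to 1 with 1 array left out (1.8% to 3.23%). The count lower was 0 (3.33%). It became 1 with array weights (4.44%), with all probe sets of a gene averaged (3.33%) and without the 3 cultures (4.79%). With 1 array left out it was 0 to 1 (2.54% to 4.29%). The genes higher in any degree were 11 to 23 when 1 array was left out, 11 being without WT no serum replicate 2. Positive slopes past the test, 17 without and 20 with serum, became 0 and 8 without the 3 cultures, while the median slope went from 0.38 to 0.46 and from 0.49 to 0.43 and its median SE from 0.08 to 0.44 and 0.19. Negative slopes became 1 with the replicate block (Slc2a3, without serum) and with array weights (Pfkfb3, with serum), and 0 to 1 in each set with 1 array left out: Slc2a3 without WT no serum replicate 3, and Pfkfb3 without WT no serum replicate 5 or WT serum replicate 1. Genes ranked lower with serum in TG, 4, were 2 to 4 with 1 array left out, 2 being without TG no serum replicates 1 or 3 or TG serum replicate 6. The numbers of genes called between genotypes, or different between sets, remained 0 under every alternative run. Culture numbers were not taken to pair the samples. Correlations of same-numbered WT and TG cultures ran from -0.449 to 0.150 without serum and from -0.360 to 0.0621 with serum. Those of same-numbered cultures without and with serum, on normal scores, ran from -0.0790 to 0.0492 in WT and from -0.112 to 0.0548 in TG. A heat map legend of the paper gives its unstimulated arrays replicate numbers that differ in part from those used here. Where arrays without serum enter, a shared number may therefore not mark a shared preparation. There, neither these correlations nor the replicate block can decide whether cultures were paired. Leaving out cultures by their sarcomere mean with serum, and the probe sets at own loci, were chosen after seeing the data. Causes of these changes were not tested.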
